A study of Mus musculus with 22 samples.

Results

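Etoposide was compared with its vehicle in medullary epithelial cells (MECs) of the thymus of wild-type mice. The comparison uses 6 of the 22 arrays of the study, chosen by title, 3 titled WT Etopo and 3 titled WT DMSO. Both groups came from C57Bl/6 mice that were Aire+/+ (wild type, WT), and they differed by treatment, labelled Etopo and DMSO. In each group replicates 1 and 2 came from mice of 6 weeks and replicate 3 from a mouse or mice of 4 weeks. The other groups used beside them were KO Etopo (2 arrays), KO DMSO (3 arrays) and WT Topo and KO Topo (3 arrays each), all of 6 weeks, where KO is the Aire knockout of the same study. Fits over all 22 arrays also held 3 WT and 2 KO arrays titled Etopo Topo, all of 4 weeks, which enter only the shared estimate of spread. Etopo and Topo are usual short forms of etoposide and topotecan, which the labels do not spell out, and dose and duration were not used here. The MECs were sorted as live cells that lacked CD45, carried little Ly51 and much MHC class II, and their RNA was read on Affymetrix ST arrays, which carry probes along each whole transcript. The labels do not say whether an array holds 1 mouse or a pool, so a p-value here measures spread among arrays, which may be technical.

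MECs present antigens of peripheral tissues to developing T cells, and the regulator Aire switches on many of the genes that encode those antigens. Etoposide traps type II topoisomerases on cut DNA, so that a normally transient double-strand break persists, and in dividing cells this triggers checkpoint and p53 responses. Topotecan does the same with topoisomerase I, which cuts a single strand. The thymic medulla also holds epithelial cells that have moved on from or alongside the Aire stage, among them cornified cells of a skin-like type and tuft cells. Tuft cells are chemosensory. They read bitter and other ligands through taste receptors, a G protein, a phospholipase and the cation channel Trpm5, and they make leukotrienes and the cytokine Il25.

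Values are log2 of the deposited intensity, and a change is the mean of the WT Etopo arrays minus the mean of the WT DMSO arrays on that scale. Replicate arrays correlated at 0.9896 to 0.9924 within WT Etopo and at 0.9796 to 0.9876 within WT DMSO, and the median linear intensity was 253.77 to 257.38 in WT Etopo and 258.93 to 263.57 in WT DMSO. The markers of medullary epithelium (10 of 10 measured) averaged 11.86 to 12.03 in WT Etopo and 11.90 to 11.98 in WT DMSO, ranges that overlap. WT DMSO 1 stood apart from the other arrays in genes of thymocytes. The mean of the 21 measured thymocyte genes was 7.19, 7.27 and 7.17 in WT Etopo 1, 2 and 3, against 8.27, 7.46 and 7.38 in WT DMSO 1, 2 and 3. WT Etopo 2 and WT DMSO 1 carry a male label although Xist, which marks female cells, was high on all 6 arrays.

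The difference between WT Etopo and WT DMSO was small for nearly every gene. The median absolute change over 19752 genes was 0.10, and for 98.83% of them the 95% interval of the change lay within 1 log2 unit of 0, that is within a 2-fold change either way. By point estimate 9 genes were at least 2-fold higher and 0 at least 2-fold lower. With 1 mean per group fitted over all 22 arrays, limma called 1 gene at an adjusted p under 0.05 (0.00506% of the genes tested), and 1097 genes (5.55%) had an unadjusted p under 0.05, where 988 would be so with no change. Changes lay below 0 for 61% of all genes, with a median of -0.04. The share below 0 was 76.6% among the 4938 genes of lowest mean intensity and 48.2% among the 4938 of highest. The all-gene shares given below beside gene lists were not matched for intensity.

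The gene called was Naaladl2, on chromosome 3, which encodes a membrane protein of the N-acetylated alpha-linked acidic dipeptidase family. Its log2 intensity was 9.65, 9.74 and 10.01 in WT Etopo 1, 2 and 3, against 8.61, 8.26 and 8.93 in WT DMSO 1, 2 and 3. Each WT Etopo array lay above each WT DMSO array. The change was 1.20 ± 0.17 (SE, limma adjusted p = 0.00767), or 2.3-fold on the linear scale, with a 95% interval of 0.85 to 1.54. The array carries a further probe for the gene, of lower mean, which read 8.91, 9.15 and 9.67 in WT Etopo and 8.72, 8.50 and 9.12 in WT DMSO, a change of 0.461 with overlapping groups. Taken over both probes the change was 0.83 (limma adjusted p = 0.206). The limma adjusted p was 0.0684 without WT DMSO 1, 0.051 without WT Etopo 2, 0.131 without WT Etopo 3 and 0.181 when only the 6 arrays were fitted, and it ran from 0.000687 to 0.206 over the 18 alternatives.

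Arrays that share a replicate number deviated from their group means together (the correlation over genes was 0.335, 0.358 and 0.592 for numbers 1, 2 and 3), so the numbers were treated as pairs. The labels tie no animals together by number, and the support for pairing comes from these same arrays. Number 3 is also the 4-week array of each group. The male label falls on WT Etopo 2 and WT DMSO 1, which differ in number. The pairing was an alternative to the planned unpaired fit, and as a block over all 22 arrays it gave 1 called gene. In a limma fit of the 6 arrays with the replicate number as a block, 48 genes passed (0.243% of those tested), of which 39 were higher (0.197%) and 9 lower (0.0456%) in WT Etopo. The median SE of a change was 0.10 in this paired fit and 0.15 in the unpaired fit. Of the 48, all stayed called without pair 1 or without pair 2 and 31 stayed called without pair 3. The number of genes called was 1869 without pair 1, 440 without pair 2 and 76 without pair 3, where each fit has 1 residual degree of freedom. With counts this unstable, staying called without pair 1 or pair 2 says little about a gene. In what follows a gene is said to have risen or fallen where it passed in the paired fit, and the SE given is that of the paired fit.

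**Figure D1:**
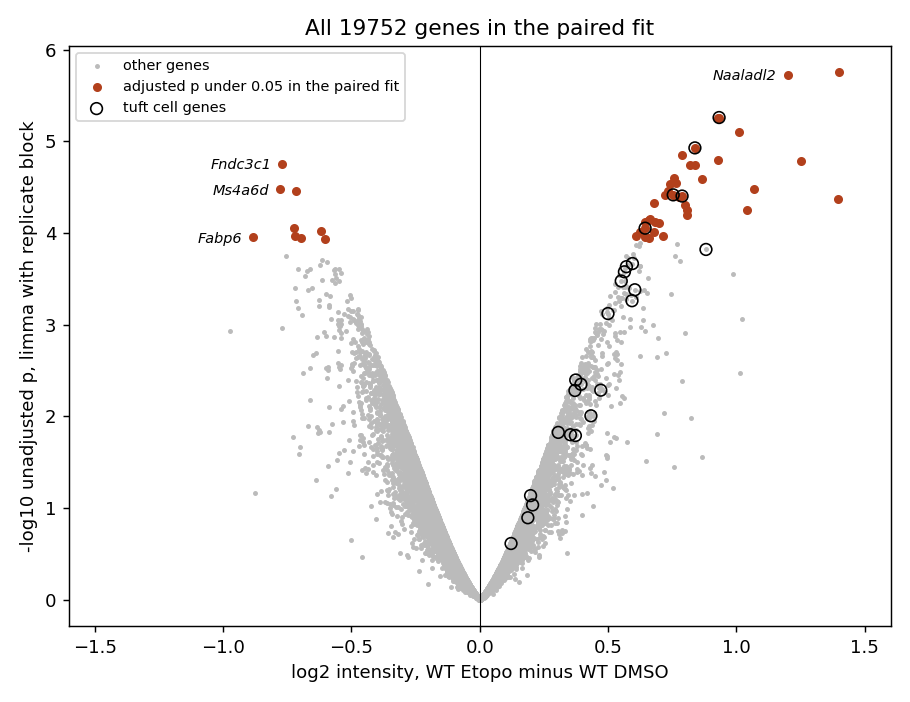
The change of each gene (horizontal, log2 intensity, WT Etopo minus WT DMSO) is plotted against -log10 of its unadjusted p in the paired limma fit (vertical). The 48 genes called are coloured, 39 to the right and 9 to the left, and the tuft cell genes, circled, all lie to the right of 0.

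Genes of tuft cells had higher mean intensities in WT Etopo than in WT DMSO, and 5 of them passed the paired fit. The tuft cell list, as the other lists of cell types and pathways, was chosen with earlier results of these data known. Its counts beside all genes are thus descriptive and no independent support. Of 28 genes listed 25 were measured, and their changes ranged from 0.12 to 0.93 with a median of 0.50, beside -0.04 over all genes. All 25 changes lay above 0 (39% of all genes did), and 16 had an unadjusted p under 0.05 (2.16% of all genes, higher). In 18 genes each WT Etopo array lay above each WT DMSO array (4.32% of all genes), and 23 were higher in all 3 pairs (2447 of all 19752 genes). In the paired fit 5 of the 25, Gnat3, Bmx, Trpm5, Alox5ap and Dclk1, rose and 0 fell, beside 0.197% and 0.0456% of all genes, and in the unpaired fit 0 were called. The mean of the list was 9.41, 9.45 and 9.66 in WT Etopo 1, 2 and 3, against 9.01, 8.88 and 9.12 in WT DMSO 1, 2 and 3. The lowest WT Etopo array thus lay above the highest WT DMSO array. The median change was 0.49 without WT DMSO 1, the array high in thymocyte genes, and 0.50 with the 6-week arrays alone. In bulk RNA of sorted cells, more cells of a type and more RNA per cell cannot be told apart.

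**Figure D2:**
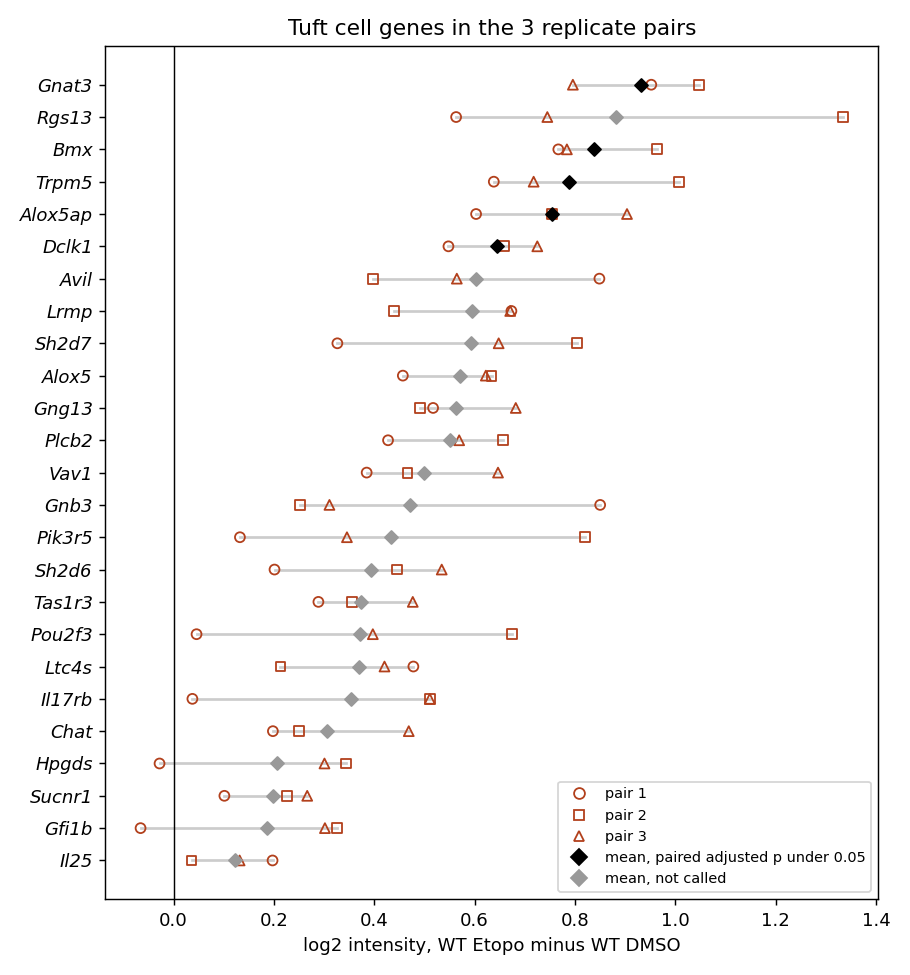
Each row is a tuft cell gene and each open symbol its log2 difference, WT Etopo minus WT DMSO, in a replicate pair (circle, square and triangle for pairs 1, 2 and 3). Diamonds give the mean, black for the 5 genes called in the paired fit, and the genes run from 0.93 for Gnat3 down to 0.12 for Il25.

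Along the taste signalling chain, the values began with the G protein. Gnat3, gustducin, the alpha subunit that couples taste receptors to their effectors, read 10.16, 10.03 and 10.55 in WT Etopo 1, 2 and 3, against 9.21, 8.98 and 9.76 in WT DMSO 1, 2 and 3. No array of the groups overlapped, and Gnat3 rose by 0.93 ± 0.10 (paired limma adjusted p = 0.0272, unpaired 0.287). Its partner subunits Gng13 (0.56 ± 0.10, paired limma adjusted p = 0.0678) and Gnb3 (0.47 ± 0.13, adjusted p = 0.192) were also separated between the groups but did not pass. The phospholipase Plcb2, the next step of the chain, changed by 0.55 ± 0.10 (paired limma adjusted p = 0.0739). Trpm5, the calcium-activated channel that depolarises the cell at the end of the chain, read 10.15, 10.51 and 10.66 in WT Etopo 1, 2 and 3, against 9.51, 9.50 and 9.94 in WT DMSO 1, 2 and 3. Each WT Etopo array lay above each WT DMSO array, and Trpm5 rose by 0.79 ± 0.11 (paired limma adjusted p = 0.0332, unpaired 0.448). Rgs13, which speeds the shutdown of G protein signals, had 11.02, 11.28 and 10.93 in WT Etopo and 10.46, 9.95 and 10.18 in WT DMSO, and its change of 0.88 ± 0.14 did not pass (paired limma adjusted p = 0.0562).

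Among regulators and kinases, the Tec family kinase Bmx read 8.90, 8.79 and 8.94 in WT Etopo 1, 2 and 3, against 8.13, 7.83 and 8.16 in WT DMSO 1, 2 and 3. It rose by 0.84 ± 0.10 (paired limma adjusted p = 0.0299, unpaired 0.341), with no overlap between the groups. Dclk1, a microtubule-linked kinase widely used to mark tuft cells, read 9.86, 9.81 and 10.32 in WT Etopo, against 9.31, 9.15 and 9.60 in WT DMSO, and rose by 0.64 ± 0.10 (paired limma adjusted p = 0.0472, unpaired 0.418). Pou2f3, the transcription factor on which tuft cells depend, was higher by 0.37 ± 0.13 and did not pass (paired limma adjusted p = 0.284). Its difference was 0.05 in pair 1, 0.67 in pair 2 and 0.40 in pair 3. Gfi1b, another transcription factor of these cells, differed by 0.19 ± 0.11, with overlapping groups. The adaptor genes Sh2d7 (0.59 ± 0.12) and Sh2d6 (0.39 ± 0.11), the guanine exchange factor Vav1 (0.50 ± 0.10) and the actin regulator Avil (0.60 ± 0.11) did not pass either.

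The genes for lipid mediators were led by the leukotriene pathway. Alox5ap, which presents arachidonic acid to the enzyme that begins leukotriene synthesis, read 9.71, 9.84 and 9.999 in WT Etopo 1, 2 and 3, against 9.11, 9.09 and 9.10 in WT DMSO 1, 2 and 3. The WT DMSO arrays were nearly equal, all WT Etopo arrays lay above them, and Alox5ap rose by 0.75 ± 0.10 (paired limma adjusted p = 0.0332, unpaired 0.140). Alox5, that enzyme, changed by 0.57 ± 0.10 (paired limma adjusted p = 0.0675), and Ltc4s, which makes leukotriene C, by 0.37 ± 0.10 (adjusted p = 0.192). Hpgds, the prostaglandin D synthase, had overlapping groups and a change of 0.21 ± 0.11. Of the genes by which tuft cells speak to immune cells and nerves, the cytokine Il25 differed least in the list (0.12 ± 0.10), its receptor chain Il17rb by 0.35 ± 0.12 and the acetylcholine synthesis enzyme Chat by 0.31 ± 0.10, and none passed. Over the 18 alternatives the limma adjusted p ran from 0.0272 to 0.9998 for Gnat3, from 0.00449 to 0.9998 for Bmx and from 0.0332 to 0.9998 for Trpm5.

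Of 34 bitter taste receptors (the Tas2r family) measured, 4 rose in the paired fit and 0 fell, beside 0.197% and 0.0456% of all genes. The mean of the family was low, at 5.87, 6.04 and 6.43 in WT Etopo 1, 2 and 3, against 5.63, 5.83 and 6.12 in WT DMSO 1, 2 and 3, so the groups overlapped. Few of its members reach a mean log2 of 7. The family's median change was 0.15, and 24 of the 34 changes lay above 0 (39% of all genes). Single arrays moved this median: it was 0.020 without WT DMSO 1, 0.014 without WT Etopo 3, 0.23 without WT DMSO 3 and 0.26 without WT Etopo 1. The receptors that rose were Tas2r108, Tas2r118, Tas2r115 and Tas2r123, all on chromosome 6. Tas2r108 read 9.02, 9.29 and 9.61 in WT Etopo 1, 2 and 3, against 8.29, 7.76 and 8.75 in WT DMSO 1, 2 and 3, and rose by 1.04 ± 0.15 (paired limma adjusted p = 0.0386, unpaired 0.230). Tas2r118 read 7.61, 8.12 and 9.21 in WT Etopo, against 6.75, 7.26 and 8.13 in WT DMSO. For Tas2r118 the groups overlapped, since replicate 3 was high in both, but the pairs differed by 0.86, 0.86 and 1.07 and the paired change was 0.93 ± 0.10 (paired limma adjusted p = 0.0272, unpaired 0.704). Tas2r115, also highest in replicate 3 of both groups, differed by 0.71, 0.78 and 1.03 in the pairs (0.84 ± 0.11, paired limma adjusted p = 0.0299). Tas2r123 read 6.54, 6.66 and 6.86 in WT Etopo and 5.57, 5.95 and 6.09 in WT DMSO (0.82 ± 0.10, paired limma adjusted p = 0.0299). Receptors of such a family are similar in sequence, and cross-hybridisation between their probes was not examined.

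Rgs21, a regulator of G protein signalling known from taste cells, was not in the tuft list and rose as well. It read 6.91, 6.75 and 6.99 in WT Etopo 1, 2 and 3, against 6.40, 5.74 and 6.08 in WT DMSO 1, 2 and 3 (0.81 ± 0.12, paired limma adjusted p = 0.0422, unpaired 0.577). The POU family, to which Pou2f3 belongs, binds the octamer ATGCAAAT, so the RefSeq promoters (build GRCm38.p6, 250 bases before to 50 after a gene's start) were searched for it on both strands. It occurred in 570 of 32851 promoters (1.74%). Of the 39 genes that rose, 28 had promoters in the table, 35 in all, and 4 of these 35 (11.4%) held it. Of the 9 genes that fell, 8 had a promoter there and 0 held it. With 8 promoters and a share of 1.74% over all promoters, 0 matches cannot tell the genes that fell from other genes. Of 23 promoters of 21 tuft list genes 2 held it, those of Hpgds and Sucnr1. The 4 risen genes with the octamer were taken from those called higher, so their shared direction in WT follows from that choice. Their promoters are shown with the octamer, or its reverse complement ATTTGCAT, in capitals. Each is read on the gene's own strand, and the promoter of Trpm5, which has no match, follows. They lie at chr1:144567618-144567917 (minus strand, Rgs21), chr6:40493342-40493641 (plus, Tas2r108), chr6:23970011-23970310 (minus, Tas2r118), chr10:115817034-115817333 (plus, Tspan8) and chr7:143094593-143094892 (minus, Trpm5).
Rgs21: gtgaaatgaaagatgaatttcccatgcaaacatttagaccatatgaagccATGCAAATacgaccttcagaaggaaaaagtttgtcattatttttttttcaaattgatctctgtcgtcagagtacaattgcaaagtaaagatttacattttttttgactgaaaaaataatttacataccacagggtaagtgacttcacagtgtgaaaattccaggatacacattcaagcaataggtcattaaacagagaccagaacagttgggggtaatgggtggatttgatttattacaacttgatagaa
Tas2r108: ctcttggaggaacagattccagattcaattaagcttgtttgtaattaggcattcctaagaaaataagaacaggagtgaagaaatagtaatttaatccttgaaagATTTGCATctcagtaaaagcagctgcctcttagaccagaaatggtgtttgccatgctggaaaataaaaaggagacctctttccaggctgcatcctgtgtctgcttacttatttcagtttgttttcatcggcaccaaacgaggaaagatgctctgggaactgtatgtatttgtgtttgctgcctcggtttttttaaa
Tas2r118: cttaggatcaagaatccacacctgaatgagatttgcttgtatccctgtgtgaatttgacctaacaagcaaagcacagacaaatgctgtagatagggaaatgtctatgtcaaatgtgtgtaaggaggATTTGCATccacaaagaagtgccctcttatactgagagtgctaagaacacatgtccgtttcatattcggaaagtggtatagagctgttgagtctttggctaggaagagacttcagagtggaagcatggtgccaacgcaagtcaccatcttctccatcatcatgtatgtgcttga
Tspan8: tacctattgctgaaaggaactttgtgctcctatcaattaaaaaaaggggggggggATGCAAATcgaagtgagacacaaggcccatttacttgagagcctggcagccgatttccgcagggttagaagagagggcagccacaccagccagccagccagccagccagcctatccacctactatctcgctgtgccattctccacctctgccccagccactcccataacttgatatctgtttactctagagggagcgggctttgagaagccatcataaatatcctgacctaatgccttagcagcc
Trpm5: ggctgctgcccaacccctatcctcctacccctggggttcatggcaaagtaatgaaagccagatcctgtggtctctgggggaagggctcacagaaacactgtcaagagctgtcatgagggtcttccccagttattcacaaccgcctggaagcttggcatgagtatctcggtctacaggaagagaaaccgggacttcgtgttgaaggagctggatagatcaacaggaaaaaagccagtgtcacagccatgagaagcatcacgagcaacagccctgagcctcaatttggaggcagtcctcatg
The octamer began 200 bases before the start in Rgs21, 195 in Tspan8, 146 in Tas2r108 and 124 in Tas2r118. A match describes these letters and is no evidence of binding, and the missing match in Trpm5 says nothing of the factor.

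Other genes that rose encode enzymes, membrane proteins and secreted proteins of epithelia. Gsta4, a glutathione transferase, read 11.47, 11.44 and 11.25 in WT Etopo 1, 2 and 3, against 10.64, 10.82 and 10.40 in WT DMSO 1, 2 and 3, with no overlap (0.76 ± 0.10, paired limma adjusted p = 0.0332). Adh1, an alcohol dehydrogenase that also oxidises retinol, read 11.56, 11.58 and 11.40 in WT Etopo, against 10.72, 10.99 and 10.78 in WT DMSO (0.68 ± 0.10, paired limma adjusted p = 0.0439). Sdr16c6, of the short-chain dehydrogenases, rose by 0.93 ± 0.11, the glucuronosyltransferase Ugt2b34 by 0.81 ± 0.12, the sulfotransferase Sult1b1 by 0.80 ± 0.11, the cytochrome Cyp2d12 by 0.77 ± 0.11 and the microsomal glutathione transferase Mgst1 by 0.62 ± 0.10. Each of these 5 genes was separated between the groups, and their paired limma adjusted p ran from 0.0299 to 0.0472. Some belong to families of close copies, for which probes may cross-react.

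The inwardly rectifying potassium channel Kcnj16 had 8.35, 8.53 and 8.41 in WT Etopo 1, 2 and 3, against 7.58, 7.76 and 7.59 in WT DMSO 1, 2 and 3. The pairs differed by 0.77, 0.77 and 0.82, and it rose by 0.79 ± 0.10 (paired limma adjusted p = 0.0299, unpaired 0.230). The tetraspanins Tspan8 (0.70 ± 0.10), Tspan6 (0.68 ± 0.10) and Tspan1 (0.66 ± 0.10), membrane proteins that organise surface domains, rose, as did the carbonic anhydrase Car12 (0.64 ± 0.10) and its catalytically inactive relative Car8 (0.64 ± 0.10). Reg3b, an antibacterial lectin of gut and pancreas, read 10.52, 10.57 and 9.69 in WT Etopo, against 9.67, 9.91 and 8.92 in WT DMSO. The groups overlapped because replicate 3 was low in both, while each pair differed by at least 0.66 (0.76 ± 0.10, paired limma adjusted p = 0.0332, unpaired 0.826). Spink1, a trypsin inhibitor of the pancreas, showed the same order, with pair differences of 0.82, 0.64 and 0.77 (0.74 ± 0.10, paired limma adjusted p = 0.0332, unpaired 0.704). Wfdc2, a secreted protein with protease inhibitor domains, rose by 0.61 ± 0.10 and Bbox1, an enzyme of carnitine synthesis, by 0.66 ± 0.10. The other genes that rose were Aadacl2, Serpinb11, Mctp1, Slitrk6 and 7 noncoding or predicted genes.

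Those 7, named after their values were seen, held 5 of the 9 genes that were at least 2-fold higher. Rny1, a small RNA that binds the Ro protein, read 10.23, 11.16 and 9.61 in WT Etopo 1, 2 and 3, against 9.17, 9.04 and 8.61 in WT DMSO 1, 2 and 3, with no overlap (1.39 ± 0.19, paired limma adjusted p = 0.0332, unpaired 0.448). The small nucleolar RNA genes Snord47 (1.07 ± 0.14), Snord73b (1.01 ± 0.11) and Snord82 (0.66 ± 0.10), whose kind guides the methylation of ribosomal RNA, rose in the paired fit. Snord47 and Snord73b overlapped between the groups. The predicted gene Gm5662 differed by 1.80, 1.19 and 1.20 in the pairs, with overlapping groups (1.40 ± 0.13, paired limma adjusted p = 0.0185). Gm10785 rose by 1.25 ± 0.15 and Dleu2, a noncoding host of microRNAs, by 0.86 ± 0.11. Over 30 Snord genes the median change was 0.27, with 22 above 0 (39% of all genes) and 3 that rose (0.197% of all genes). Their mean was 8.45, 8.36 and 8.23 in WT Etopo 1, 2 and 3, against 8.44, 7.94 and 7.87 in WT DMSO 1, 2 and 3, so the groups overlapped. RNA quality was not measured here, and its part in these values was not tested.

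**Figure D3:**
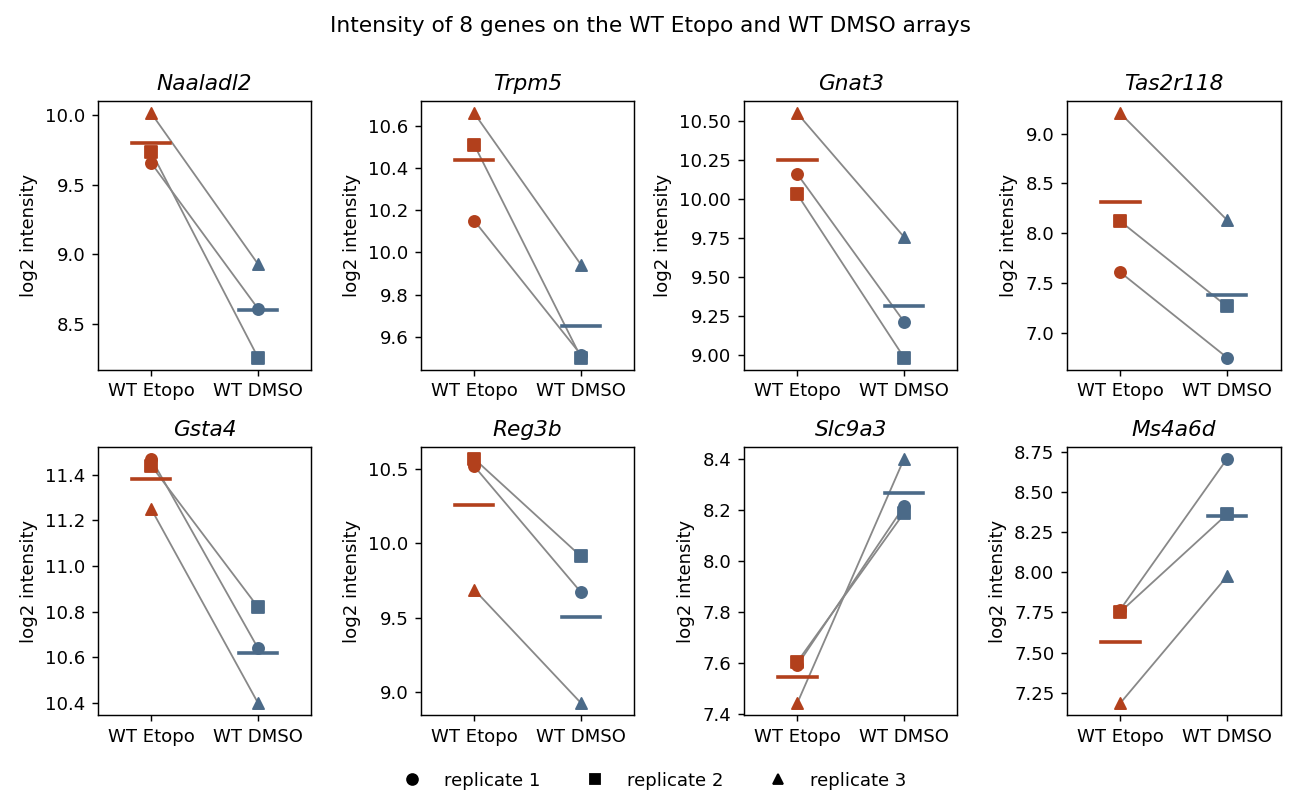
Log2 intensity (vertical) of 8 genes called in the paired fit on the 3 WT Etopo arrays (left of each panel) and the 3 WT DMSO arrays (right), with a line for each replicate pair and a bar for each mean. All lines fall to the right for the 6 genes higher in WT Etopo and climb for Slc9a3 and Ms4a6d, and in Tas2r118 and Reg3b replicate 3 stands apart in both groups.

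Genes of cornified MECs, the skin-like cells, had a median change of 0.20 over 17 measured members, of which 13 lay above 0 (39% of all genes), 3 were separated upward between the groups (4.32% of all genes) and 0 passed either fit. The largest was Krtdap, a keratinocyte differentiation protein, with 10.96, 11.12 and 11.03 in WT Etopo 1, 2 and 3, against 10.67, 10.15 and 10.06 in WT DMSO 1, 2 and 3 (0.75 ± 0.14, paired limma adjusted p = 0.0843). Calml3, an epithelial calmodulin, changed by 0.59 ± 0.11 (adjusted p = 0.0843 in the paired limma fit) and the epidermal protease inhibitor Spink5 by 0.47 ± 0.10 (adjusted p = 0.115). The keratins of this programme, Krt1 (0.37 ± 0.14) and Krt10 (0.20 ± 0.14), overlapped between the groups. The median was 0.11 without WT DMSO 3 and 0.07 with the 6-week arrays alone.

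Of the genes lower in WT Etopo, 9 passed the paired fit. Slc9a3, the sodium and proton exchanger of gut and kidney, read 7.59, 7.60 and 7.44 in WT Etopo 1, 2 and 3, against 8.21, 8.19 and 8.40 in WT DMSO 1, 2 and 3. The groups did not overlap, and Slc9a3 fell by 0.72 ± 0.11 (paired limma adjusted p = 0.0472, unpaired 0.102). Ms4a6d, a membrane protein best known from macrophages, read 7.77, 7.75 and 7.19 in WT Etopo, against 8.71, 8.36 and 7.97 in WT DMSO (-0.78 ± 0.10, paired limma adjusted p = 0.0332). Fndc3c1, a fibronectin domain gene, changed by -0.77 ± 0.10, the lipocalin Lcn8 of the epididymis by -0.71 ± 0.10, the reproductive homeobox gene Rhox12 by -0.72 ± 0.11, the muscle protein gene Smpx by -0.70 ± 0.11 and the signalling ligand gene Wnt8b by -0.62 ± 0.10. Each of these was separated between the groups. Fabp6, the bile acid binding protein of the ileum, had pair differences of -0.60, -1.31 and -0.74 (-0.88 ± 0.14, paired limma adjusted p = 0.0472) with overlapping groups, and the last of the 9 was an olfactory receptor gene.

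Antigens known to depend on Aire were lower in WT Etopo for most members, without passing a test. Of 21 measured, 16 changes lay below 0 (61% of all genes), 5 were separated downward between the groups (7.31% of all genes), 6 had an unadjusted p under 0.05 (3.4% of all genes, lower) and 0 passed either fit. The median was -0.15, and -0.22 without WT DMSO 2. Crabp1, a retinoic acid binding protein, read 12.13, 11.65 and 11.84 in WT Etopo 1, 2 and 3, against 12.65, 12.76 and 12.47 in WT DMSO 1, 2 and 3. No array of the groups overlapped, and the change was -0.76 ± 0.13 (paired limma adjusted p = 0.0624, unpaired 0.208). The fibrinogen chain Fgg changed by -0.71 ± 0.14 (paired limma adjusted p = 0.0894), the liver cytochrome Cyp1a2 by -0.55 ± 0.12 (0.111) and the pepsinogen Pgc by -0.46 ± 0.10 (0.110). Outside the list, further genes were named by a rule that requires separated groups (7.31% of all genes were separated downward), and they did not pass. They were the basement membrane protein gene Nid1 (-0.72 ± 0.13), the secreted mucin gene Muc19 (-0.71 ± 0.14) and the resistin-like gene Retnla (-0.67 ± 0.13). The others were the neuropeptide gene Npy (-0.66 ± 0.17), asparagine synthetase, Asns (-0.66 ± 0.12), and the muscle ankyrin gene Ankrd1 (-0.68 ± 0.12). A further probe for Muc19, of lower mean, changed by -0.368, also without overlap. Aire itself read 12.30, 12.22 and 12.04 in WT Etopo, against 12.26, 12.24 and 12.44 in WT DMSO, with overlap and a change of -0.13 ± 0.11.

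A wider set of Aire-induced genes was drawn from arrays outside this comparison, as the 406 genes at least 2-fold lower in KO Topo than in WT Topo at a limma adjusted p under 0.05. Their median change was 0.00, with 49.8% below 0, beside -0.04 and 61% for all genes. The mean of the set was 9.30, 9.21 and 9.07 in WT Etopo 1, 2 and 3, against 9.25, 9.20 and 9.11 in WT DMSO 1, 2 and 3, so the groups overlapped. Of the 406 genes 11 rose and 1 fell in the paired fit, beside 0.197% and 0.0456% of all genes, and Naaladl2 was among those that rose. The 144 genes at least 2-fold higher in KO Topo had a median of -0.08 (0.010 without WT DMSO 1, -0.14 without WT DMSO 2 and -0.053 without WT Etopo 3), and 1 of them rose and 0 fell. With no minimum fold the set held 1900 genes and its median was -0.01. The choice favours genes that are high in WT Topo. The set chosen on the DMSO arrays themselves shares its controls with this comparison and was not used.

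Genes of mature MECs, the cells that make Aire and present antigen, had a median change of -0.12 over 24 members, with 17 below 0 (61% of all genes), 12 lower in all 3 pairs (4361 of all 19752 genes) and 0 passing either fit. The median was -0.038 without WT Etopo 3 and -0.056 without WT DMSO 1, near the -0.04 of all genes. The co-stimulatory receptor Cd40 read 11.45, 11.16 and 11.19 in WT Etopo 1, 2 and 3, against 11.71, 11.78 and 11.60 in WT DMSO 1, 2 and 3 (-0.43 ± 0.11, paired limma adjusted p = 0.163). The chemokine Ccl17 (-0.53 ± 0.17) and the co-stimulators Cd83 (-0.37 ± 0.12) and Cd86 (-0.31 ± 0.13) did not pass. The NF-kB and cytokine response list had a median of -0.23 over 19 genes, and of -0.03 without WT DMSO 1. Its member Il6 read 4.60, 4.61 and 4.33 in WT Etopo, against 5.69, 4.85 and 4.81 in WT DMSO (-0.60 ± 0.15, paired limma adjusted p = 0.164), with WT DMSO 1 the highest. The interferon response list had a median of -0.12 over 23 genes (-0.060 without WT Etopo 2, -0.20 without WT DMSO 2 and -0.22 without WT Etopo 3). The macrophage and dendritic cell list had -0.18 over 22 (-0.098 without WT Etopo 3), with Adgre1, the F4/80 antigen, at -0.62 ± 0.11 (paired limma adjusted p = 0.0674). Neither list had a member that passed.

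**Figure D4:**
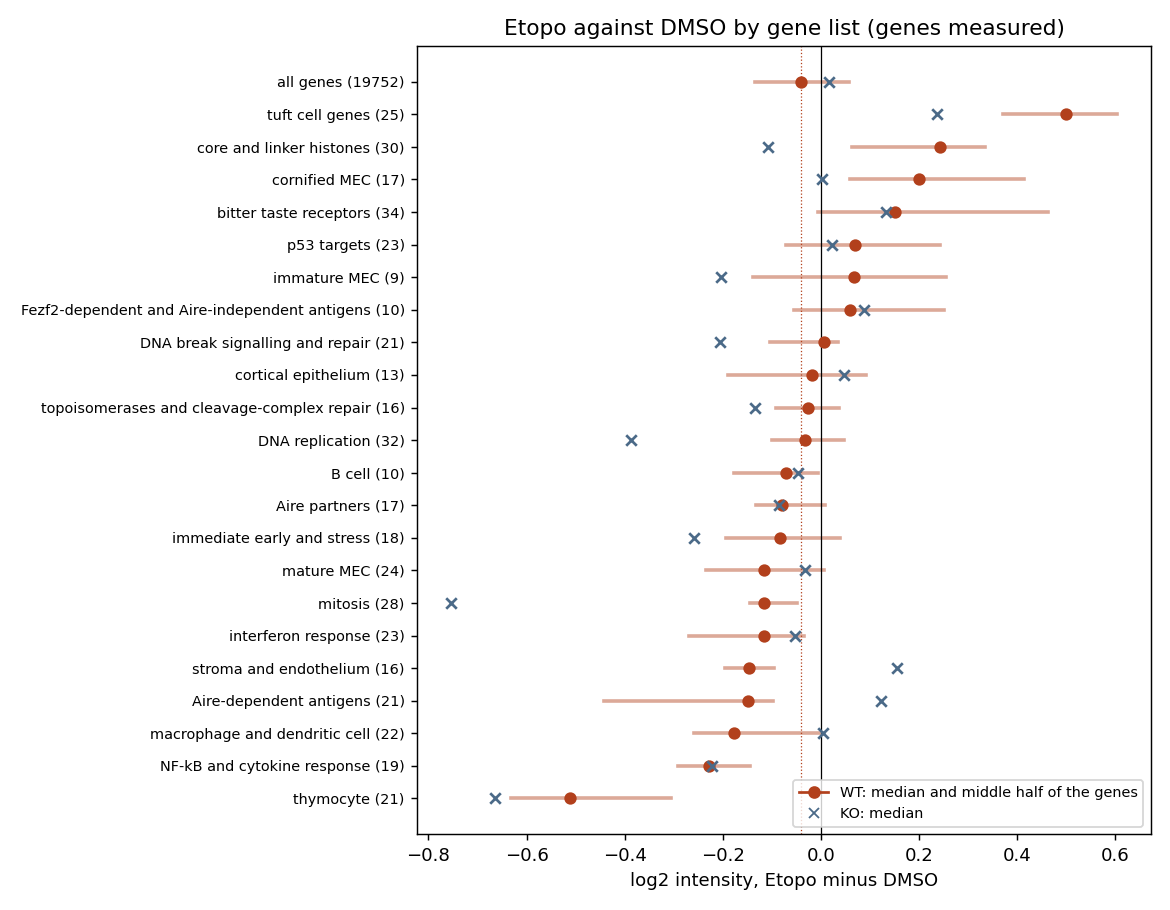
The median log2 change, Etopo minus DMSO, of each gene list is shown for WT (dot, with a line over the middle of the gene distribution between its quartiles) and for KO (cross), with the number of genes measured in brackets and all genes in the top row. In WT the tuft list (0.50) and the thymocyte list (-0.51) lie farthest from the all-gene median of -0.04 (dotted line), and in KO the mitosis list lies at -0.75.

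No gene among the drug's targets, break repair factors or p53 targets passed either fit. Top2a, the topoisomerase of dividing cells, read 9.31, 9.29 and 9.08 in WT Etopo 1, 2 and 3, against 9.59, 9.08 and 9.13 in WT DMSO 1, 2 and 3 (-0.04 ± 0.12, with an unpaired 95% interval of -0.60 to 0.52). Top2b, the form of non-dividing cells, changed by 0.13 ± 0.13 and Top1 by 0.08 ± 0.12, and the groups overlapped for all of them. Of 16 topoisomerase and cleavage-complex repair genes 1 was separated downward, near the share of 7.31% over all genes. It was Tdp1, which removes topoisomerase peptides from DNA ends, at -0.29 ± 0.11 (paired limma adjusted p = 0.343). Over 21 genes of break signalling and repair the median was 0.01 (-0.10 to 0.047 when 1 array was left out), with the Fanconi protein gene Fancd2 at -0.37 ± 0.10 and the end-joining gene Xrcc4 at 0.32 ± 0.10. Neither passed.

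P53 targets had a median of 0.07 over 23 measured genes, with 15 above 0 (39% of all genes), 3 separated upward (4.32% of all genes) and 0 called. The median was -0.012 without WT DMSO 3, 0.018 without WT Etopo 1, 0.045 without WT Etopo 2, 0.11 without WT Etopo 3 and 0.15 without WT DMSO 1. Those 3 were the kinase Plk2 (0.54 ± 0.14), the stress sensor Sesn1 (0.37 ± 0.11) and Perp (0.34 ± 0.10), a membrane protein of p53-induced death and of epithelial junctions. Of these Perp had the most even pairs, with 11.33, 11.43 and 11.27 in WT Etopo 1, 2 and 3, against 10.97, 11.12 and 10.93 in WT DMSO 1, 2 and 3 (paired limma adjusted p = 0.202). Mdm2, the ubiquitin ligase that p53 induces against itself, differed by -0.44, 0.47 and -0.03 in the pairs, a mean change of 0.00 ± 0.15. The genes Cdkn1a, Bax and Gdf15 were not measured here.

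Mitosis genes had a median of -0.12 over 28 members, with 25 below 0 (61% of all genes), 5 separated downward between the groups (7.31% of all genes) and 0 called. DNA replication genes had a median of -0.03 over 32, close to that of all genes, which ran from -0.083 to 0.010 when 1 array was left out. The spindle checkpoint kinase Bub1b changed by -0.29 ± 0.12, the spindle protein Prc1 by -0.22 ± 0.10 and the cytokinesis factor Ect2 by -0.22 ± 0.10. Core and linker histone genes went the other way in most members, with a median of 0.24 over 30, 24 above 0 (39% of all genes), 14 higher in all 3 pairs (2447 of all 19752 genes) and 0 called. The median was 0.15 without WT Etopo 2. H4c3 read 9.04, 9.27 and 9.20 in WT Etopo 1, 2 and 3, against 8.96, 8.77 and 8.42 in WT DMSO 1, 2 and 3 (0.45 ± 0.13, paired limma adjusted p = 0.219). Histone genes are near copies of each other and cross-hybridisation between their probes was not examined.

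Thymocyte genes had a median of -0.51 over 21 measured members, all 21 below 0 (61% of all genes) and 12 of them separated downward (7.31% of all genes), and 0 passed either fit. Cd3g, a chain of the T cell receptor complex, read 7.64, 7.61 and 7.90 in WT Etopo 1, 2 and 3, against 9.42, 8.06 and 8.59 in WT DMSO 1, 2 and 3 (-0.97 ± 0.21, paired limma adjusted p = 0.115). Rag1, which rearranges receptor genes, read 6.82, 6.77 and 6.85 in WT Etopo, against 8.53, 7.12 and 6.90 in WT DMSO, and its pairs differed by -1.71, -0.34 and -0.05, a mean of -0.70 ± 0.25 to which pair 1 gave the most. Without WT DMSO 1 the median of the list was -0.21. Immediate early genes moved with the same array, with means of 10.03, 10.21 and 9.69 in WT Etopo 1, 2 and 3, against 10.80, 9.72 and 9.66 in WT DMSO 1, 2 and 3. Their median was -0.08, with 0.28 without WT DMSO 1, 0.061 without WT Etopo 3 and -0.30 without WT DMSO 3. The sort against CD45 is meant to leave thymocytes out, and their part in the other differences was not tested.

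Cortical epithelium, immature MECs, B cells, stroma with endothelium, Aire partners and Fezf2-dependent antigens held 0 genes that passed either fit. Cortical epithelium, the cells of the outer thymus, had a median of -0.02 over 13 genes, which ran from -0.096 to 0.054 when 1 array was left out. Immature MECs had 0.07 over 9, which was -0.081 without WT Etopo 3 and 0.10 without WT Etopo 1. B cells had -0.07 over 10, with -0.043 without WT DMSO 1 and -0.14 without WT DMSO 2, and stroma with endothelium -0.15 over 16. In the last list the fibroblast protease Fap read 8.43, 8.41 and 8.40 in WT Etopo 1, 2 and 3, against 8.22, 7.90 and 7.77 in WT DMSO 1, 2 and 3 (0.45 ± 0.11, paired limma adjusted p = 0.163), while fibronectin, Fn1, was at -0.40 ± 0.11. Proteins that work with Aire had a median of -0.08 over 17 genes (-0.035 without WT DMSO 1 and -0.045 without WT Etopo 2), led by the elongation factor cyclin gene Ccnt2 at 0.33 ± 0.10. Antigens that depend on Fezf2 or on neither factor had a median of 0.06 over 10 (0.022 to 0.18 when 1 array was left out), led by the apolipoprotein gene Apoc3 at 0.53 ± 0.12 (paired limma adjusted p = 0.123).

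The same drug was set against the same vehicle in Aire KO MECs, on 2 KO Etopo and 3 KO DMSO arrays, and the difference of the WT change and the KO change was tested in the fit over all 22 arrays. Across all genes the WT and KO changes had a Pearson r of -0.02 (genes are not independent replicates). No gene passed in KO (0%, with 707 genes at an unadjusted p under 0.05, 3.58%), and none passed for the difference (0%, with 907 at an unadjusted p under 0.05, 4.59%). The 3 genes with the smallest p for the difference were Naaladl2, Slc9a3 and Tspan8. Naaladl2 read 7.20 and 7.60 in KO Etopo, against 7.82, 7.69 and 7.40 in KO DMSO, lower than in WT throughout. Its change was 1.20 in WT and -0.24 ± 0.19 in KO, a difference of 1.44 ± 0.25 that did not pass (limma adjusted p = 0.195). Slc9a3 differed by -0.91 ± 0.20 and Tspan8 by 1.00 ± 0.23 between the genotypes (limma adjusted p = 0.855 for each).

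Tuft cell genes had a median change of 0.50 in WT and 0.24 in KO, and 24 of 25 lay above 0 in KO (53.9% of all genes). The mean of the list was 9.20 and 9.46 in KO Etopo, against 9.13, 9.23 and 8.94 in KO DMSO, so that KO groups overlapped where WT groups did not. Gng13, the G protein subunit, changed by 0.56 in WT and by 0.53 ± 0.17 in KO. Gnat3 changed by 0.93 in WT and 0.22 ± 0.25 in KO, and Trpm5 by 0.79 in WT and 0.27 ± 0.27 in KO. The difference between the genotypes was 0.71 ± 0.33 for Gnat3 and 0.51 ± 0.36 for Trpm5 and did not pass for either (limma adjusted p = 0.950 for each). At an unadjusted p under 0.05 for the difference lay 2 of the 25 genes, both with the higher change in WT, beside 1.77% of all genes. Rgs21 changed by 0.81 in WT and -0.31 ± 0.30 in KO, and Tas2r118 by 0.93 in WT and -0.09 ± 0.39 in KO, and neither difference passed. The other risen receptors lay above 0 in KO, Tas2r108 at 0.50 ± 0.26, Tas2r123 at 0.29 ± 0.28 and Tas2r115 at 0.12 ± 0.39. Over the bitter taste receptors the median change was 0.15 in WT and 0.13 in KO, where 32 of 34 lay above 0 (53.9% of all genes).

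Among the Aire-dependent antigens the median change was -0.15 in WT and 0.12 in KO, beside -0.04 and 0.02 over all genes. The mean of the list was 7.02 to 7.22 on the KO arrays, against 9.75 to 10.19 on the WT Etopo and WT DMSO arrays. The KO changes are thus read at a much lower signal than the WT changes, and the part of this in the genotype differences was not tested. In KO 17 of 21 lay above 0 (53.9% of all genes). The retinoid carrier Crabp1 changed by -0.76 in WT and 0.21 ± 0.17 in KO, and the difference of -0.96 did not pass (limma adjusted p = 0.855). For 4 of the 21 genes the difference had an unadjusted p under 0.05 with the lower change in WT, beside 2.83% of all genes. 

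Mitosis genes had unlike values in WT and KO. Their median change was -0.12 in WT and -0.75 in KO, where all 28 lay below 0 (46.1% of all genes) and 27 were separated downward (12.8% of all genes). The mean of the list was 8.39, 8.50 and 8.42 in WT Etopo 1, 2 and 3, against 8.60, 8.47 and 8.53 in WT DMSO 1, 2 and 3. In KO it was 7.63 and 7.81 under Etopo, against 8.48, 8.26 and 8.61 under DMSO, so the 2 KO Etopo arrays lay below all others. For 16 of the 28 genes the difference had an unadjusted p under 0.05 with the higher change in WT, beside 1.77% of all genes, and 0 were called. Nusap1, a spindle protein, changed by 0.23 ± 0.20 in WT (unpaired SE) and by -0.98 ± 0.23 in KO (difference 1.21 ± 0.31, limma adjusted p = 0.855). Top2a changed by -1.03 ± 0.30 in KO, and its difference of 0.99 ± 0.40 did not pass either (limma adjusted p = 0.950). DNA replication genes had a median of -0.39 in KO, with 32 of 32 below 0 (46.1% of all genes). The thymocyte list averaged 7.25 and 7.20 in KO Etopo, against 8.75, 7.51 and 7.31 in KO DMSO, and its part in the KO changes was not tested.

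**Figure D5:**
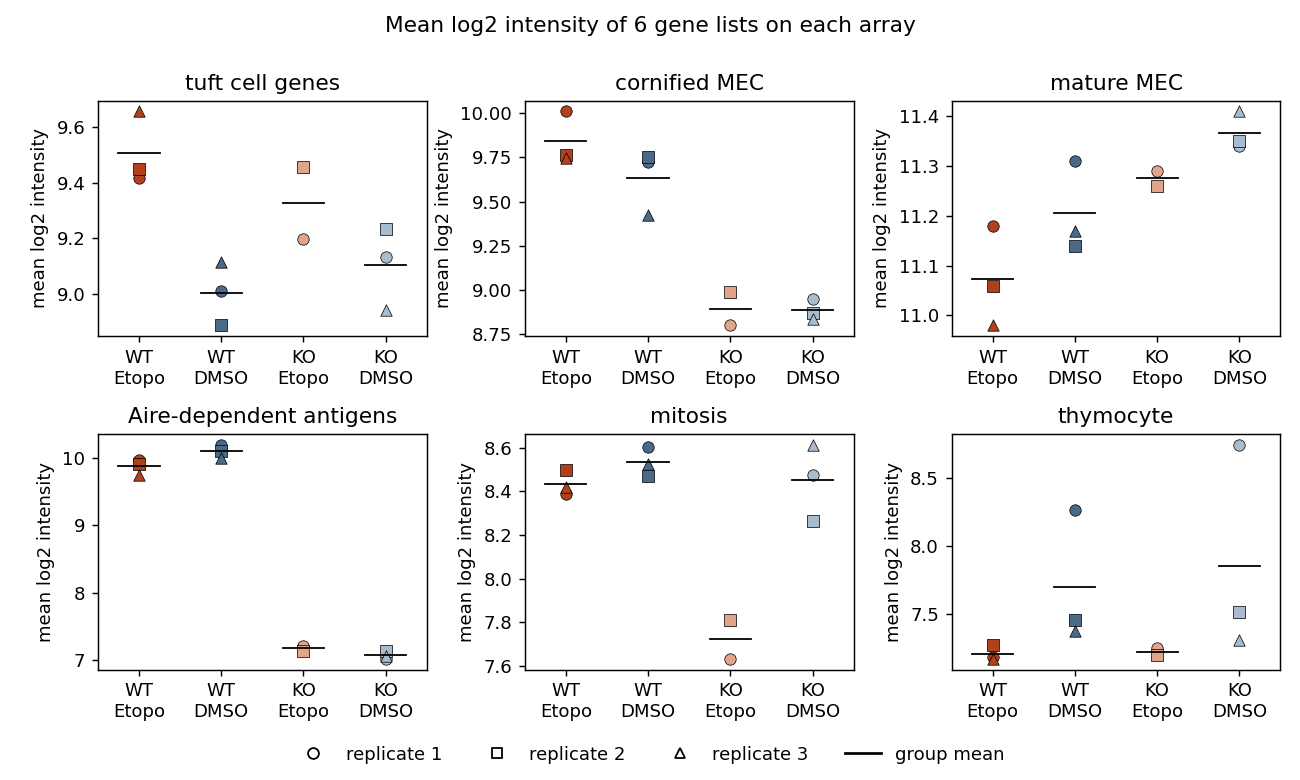
The mean log2 intensity (vertical) of 6 gene lists is shown on each array of WT Etopo, WT DMSO, KO Etopo and KO DMSO, with symbols for replicate numbers and a bar for the group mean. Tuft genes are separated between WT Etopo (9.41 to 9.66) and WT DMSO (8.88 to 9.12), mitosis genes are low on the 2 KO Etopo arrays, and thymocyte genes are high on replicate 1 of both DMSO groups.

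Set against WT Topo, the WT Etopo arrays differed in 1 gene (0.00506% of those tested, with 878 at an unadjusted p under 0.05, 4.45%). Ppp1r17, a phosphatase inhibitor known from cerebellar Purkinje cells, read 7.71, 7.49 and 7.02 in WT Etopo 1, 2 and 3, against 6.19, 6.49 and 6.22 in WT Topo 1, 2 and 3. It was higher in WT Etopo by 1.11 ± 0.17 (limma adjusted p = 0.0439), and the call was lost without any 1 of the WT Topo arrays or without WT Etopo 1 or 2. The tuft list was lower in WT Etopo than in WT Topo by a median of 0.27 (-0.27 on the scale Etopo minus Topo), and Naaladl2 differed by 0.16 ± 0.17, with 9.65, 9.74 and 10.01 in WT Etopo and 9.62, 9.71 and 9.60 in WT Topo. The mitosis list was higher in WT Etopo by a median of 0.51, where the median over all genes was -0.03 on the same scale. At an unadjusted limma p under 0.05 lay 17 of the 28 mitosis genes and 2 of the 25 tuft genes, beside 4.45% of all genes. Of either list 0 members were called. On the scale Etopo minus Topo, Gnat3 was at -0.42, Trpm5 at -0.31, Ugt2b34 at -0.63 and Kcnj16 at -0.27. These genes that rose had a still higher mean in WT Topo, so lying above WT DMSO was not particular to WT Etopo. Of genes that fell, Ms4a6d was at 0.36 and Slc9a3 at 0.19, while Rhox12 was at -0.02. None of the genes named here was called.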

How the data were processed

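Gene expression was measured on 22 arrays in 8 groups of sorted mouse MECs, of which 6 enter the main comparison. The deposited intensity values of the authors are linear, and per the submitters' processing notes they were made with RMA and Affymetrix Power Tools, versions not given in the sources used here. The log2 of each value was taken with no pseudocount and no further normalization, although the design had assumed values already in log2. Array signal gives no depth, and the number of arrays limits the precision. Probes with a single gene symbol were kept (21425 of 24922), and the 1399 that carry several and the 2098 that carry none were left out. Identifiers of 21347 matched a RefSeq table of GRCm38.p6, and 0 symbols changed. The probe with the highest mean was kept for each gene, which left 19752 genes.

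The tests used limma 3.58.1 under R 4.3.3 (with version 1.17.8 of data.table), as 1 mean per group over 22 arrays, with eBayes and Benjamini-Hochberg adjustment over all genes, at an adjusted p under 0.05. The paired fit used the 6 arrays with replicate number as a block, since same-numbered WT Etopo and WT DMSO arrays deviated together over genes (0.335, 0.358 and 0.592). The numbers did not pair KO Etopo with KO DMSO or WT Etopo with WT Topo. The tests were tried on simulated data. Members and gene lists were chosen with earlier results of these data known, and the histone list was rewritten with current symbols after the files were seen. By rule the text names called genes, up to 12 genes each way with non-overlapping groups, an unadjusted p under 0.01 and a mean log2 of at least 6, up to 4 members of each list with the largest change, Aire, Top1, Top2a and Top2b, the 3 genes of smallest p for the genotype difference and called genes against WT Topo. The rule leaves out small RNA and predicted genes. Genes called in the paired fit, the Snord genes and further list members were named after their values were seen. Alternatives covered the arrays used, the block, age, normalization, a pseudocount of 16, a minimum mean log2 of 7, the variance prior, array weights and the choice of probe. A planned description by gene length was not run. Sequences and motif counts came from RefSeq.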

Additional observations from a re-analysis of the deposited data

How the results depend on the processing

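The count of 1 gene for WT Etopo against WT DMSO became 48 with the replicate block on the 6 arrays and 1 with the block on all 22 arrays. It was 0 with the 6 arrays alone, 0 without the 2 arrays of male label, 3 after quantile normalization, 0 with the mean over probes and 0 to 3 when 1 array was left out. With array weights it was 1345 (608 higher, 737 lower), in a fit that gave WT DMSO 3 a weight of 6.5 and WT DMSO 1 and 2 weights of 0.373 and 0.41 and that did not reach its convergence tolerance. It stayed at 1 with age as a covariate, with the 6-week arrays, with 16 added, with the minimum mean and with another prior. Of the paired 48, quantile normalization gave 38 (36 shared), the minimum mean 38 (36 shared), an intensity trend with a robust prior 144 (47 shared) and leaving out a pair 76, 440 and 1869. These paired alternatives were chosen after seeing the data. The genotype difference gave 0 genes with the block and 1 with age as a covariate, and 0 to 1 over arrays left out. KO Etopo against KO DMSO gave 0 to 2 over arrays left out (0 with the block). WT Etopo against WT Topo gave 0 with the block, 0 with the minimum mean and 0 to 2 over arrays left out. The cause of these moves was not tested.

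Of 117 genes followed, 6 changed sign somewhere and none of these was called. Il25 was at -0.062 and Top2a at 0.087 without the arrays of male label, Top2a at 0.087 with array weights, Aire at 0.0076 with the 6-week arrays and Mdm2 at -0.014 after quantile normalization. With 1 array left out Mdm2 ranged from -0.16 to 0.23, Top1 from -0.026 to 0.29, Top2a from -0.13 to 0.12 and Top2b from -0.10 to 0.36. The median of the tuft list ran from 0.39 to 0.57 over the 18 alternatives and that of the thymocyte list from -0.75 to -0.19. Bitter taste receptors had a median of 0.69 with the minimum mean, which few of them reach, and ran down to -0.02. That of immature MECs was -0.12 with array weights.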
